A study of Mus musculus with 20 samples.

Results

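The sequences described here are T cell receptor CDR3 loops that carry a cysteine near their apex. A member is an in-frame CDR3, without frame shift or stop codon, that has a cysteine at most 2 positions from its middle residue, the conserved first cysteine not counted. Among 17 mice, 322 of 89720 distinct TCRα CDR3 amino acid sequences (0.359%) and 265 of 173865 TCRβ sequences (0.152%) were members. Counted as clonotypes, meaning a V gene, a J gene and a CDR3 amino acid sequence in 1 mouse, they were 333 of 197526 for TCRα (0.169%, 1 in 593) and 266 of 250159 for TCRβ (0.106%, 1 in 940). One TCRα member carried 2 cysteines in this window.

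The libraries came from CD8 T cells of male mice aged 9 to 12 weeks that differed in a catalytic subunit of the proteasome. WT mice were C57BL/6. β5i-KO mice lacked Psmb8, which encodes the immunoproteasome subunit β5i, and β5t-KO mice lacked Psmb11, which encodes the thymoproteasome subunit β5t. BIT mice were homozygous for a Psmb8 locus in which the coding sequence of β5t stood in place of that of β5i, in 1 mouse line. The cells were sorted as TCRβ-high CD4- CD8+ from lymph nodes and spleens according to the protocol, whereas the sample labels name lymph nodes only. The labels give 5 mice per genotype. WT replicate 5, β5t-KO replicate 5 and BIT replicate 3 held few clones and were left out, which left 5 mice for β5i-KO and 4 for each of the other genotypes. A receptor library holds only receptor transcripts, so neither the genotypes nor the CD8 identity of the cells could be checked in it.

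The CDR3 is the loop in which the V, (D) and J segments are joined, and it is the part of the receptor that faces the peptide. Its middle holds the nucleotides trimmed and added during joining, whereas its ends are encoded by the V and J genes. A cysteine near the apex is known from other work to be more frequent in receptors that react strongly with self peptides and to be rare in mature conventional CD8 T cells. β5t is made in cortical thymic epithelial cells, where it shapes the peptides on which CD8 T cells are positively selected. β5i is made in haematopoietic cells and, in the thymus, also in medullary epithelial cells.

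The most widely spread TCRα members and those with the highest share of reads in a group are given as the CDR3 nucleotide sequences in the deposited clone tables, from 5′ to 3′ with the cysteine codon near the apex in capitals. They show that 1 amino acid sequence was mostly built from different nucleotides in different mice.
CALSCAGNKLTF, WT 4: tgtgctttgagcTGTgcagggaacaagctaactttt
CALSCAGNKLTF, β5i-KO 3: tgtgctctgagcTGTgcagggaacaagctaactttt
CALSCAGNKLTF, BIT 2: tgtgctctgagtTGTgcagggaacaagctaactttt
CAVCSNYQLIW, β5i-KO 1: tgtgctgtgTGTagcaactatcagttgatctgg
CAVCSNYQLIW, β5i-KO 5: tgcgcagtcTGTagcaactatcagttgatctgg
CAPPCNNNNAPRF, BIT 1: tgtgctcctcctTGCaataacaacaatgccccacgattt
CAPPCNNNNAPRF, BIT 2: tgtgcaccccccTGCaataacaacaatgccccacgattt
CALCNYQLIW, WT 4: tgtgctctcTGCaactatcagttgatctgg
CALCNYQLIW, β5i-KO 3: tgtgctttgTGCaactatcagttgatctgg
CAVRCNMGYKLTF, β5i-KO 1 and BIT 4: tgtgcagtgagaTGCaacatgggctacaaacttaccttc
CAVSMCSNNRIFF, WT 1: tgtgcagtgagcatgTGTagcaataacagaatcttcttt
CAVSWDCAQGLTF, β5t-KO 4: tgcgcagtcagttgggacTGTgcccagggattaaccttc

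The TCRβ members chosen by the same rule include the only one found in more than 1 mouse, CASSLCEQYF, and a CDR3 whose cysteine is part of the TRBV1 gene, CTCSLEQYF.
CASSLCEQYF, β5i-KO 1: tgtgcaagcagcttaTGTgaacagtacttc
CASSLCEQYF, β5i-KO 4: tgtgccagcagtctgTGTgaacagtacttc
TRBV13-3 with TRBJ1-1, WT 2: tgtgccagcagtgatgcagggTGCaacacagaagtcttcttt
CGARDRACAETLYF, β5i-KO 2: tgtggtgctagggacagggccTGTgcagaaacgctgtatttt
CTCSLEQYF, β5t-KO 1: tgcaccTGCagtctcgaacagtacttc
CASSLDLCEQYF, β5t-KO 1: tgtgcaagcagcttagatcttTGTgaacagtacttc
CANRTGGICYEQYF, BIT 2: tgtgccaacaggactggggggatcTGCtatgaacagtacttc

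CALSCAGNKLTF had 10 unique molecules in WT 4, 5 in β5i-KO 3 and 7 in BIT 2. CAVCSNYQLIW had 21 molecules in β5i-KO 1 and 47 in β5i-KO 5. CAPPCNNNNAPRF had 7 in BIT 1 and 11 in BIT 2. These 3 sequences are spelled differently in each mouse in the stretch before the cysteine codon, and none of them was assigned the same V gene in every mouse. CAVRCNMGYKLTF, with 20 molecules in β5i-KO 1 and 12 in BIT 4, was the exception in spelling, since its nucleotides were the same in both mice. Its V gene was assigned as TRAV7-5 in β5i-KO 1 and TRAV7D-3 in BIT 4. It therefore does not count as shared where the same V gene is required. The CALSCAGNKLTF clone of β5i-KO 3 and the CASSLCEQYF clone of β5i-KO 1 each differed by 1 base from a larger clone of the same library. The highest read share in a WT mouse was that of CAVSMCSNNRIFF, with 946 counts per 1e+06 reads (CPM) and 39 molecules in WT 1, where it was the single TCRα member.

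One library stood apart. BIT 4 held 33.3% of the TCRα and 36.8% of the TCRβ member clonotypes, while it held 9.35% and 7.90% of all in-frame clonotypes of the 17 mice. It is therefore described separately, and the main comparisons are given with and without it. Some of its members are shown because they carry that difference, and they were picked after their values were seen. The first 2 share TRAJ23 and a cysteine-tyrosine pair at the join, and the last 2 share TRBJ2-3 and a cysteine placed just before its first residues.
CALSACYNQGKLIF, BIT 4: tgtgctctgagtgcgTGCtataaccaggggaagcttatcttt
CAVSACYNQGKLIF, BIT 4: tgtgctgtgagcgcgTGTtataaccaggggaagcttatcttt
TRBV19 with TRBJ2-3, BIT 4: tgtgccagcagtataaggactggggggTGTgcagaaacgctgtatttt
TRBV12-2 with TRBJ2-3, BIT 4: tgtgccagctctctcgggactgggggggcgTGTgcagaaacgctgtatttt

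The 17 libraries held 1983032 to 8480570 TCRα reads in 622 to 26272 in-frame clonotypes, and 614169 to 2856711 TCRβ reads in 384 to 39542 clonotypes. Each library also held non-productive clones, in which the junction is out of frame or holds a stop codon, 23106 in all for TCRα and 7708 for TCRβ. The libraries with the fewest clonotypes were those of β5t-KO 2 (622 for TCRα and 384 for TCRβ), β5t-KO 4 (1661 and 1900) and WT 1 (2454 and 919), in which a single clonotype moved the share of members most. The fewest TCRα molecules, 14772, were those of β5i-KO 4. No 2 libraries of the same genotype held identical values.

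The first comparison asked whether the share of clonotypes with a cysteine near the apex differed between the genotypes. For TCRα the 4 WT mice had 0.0407%, 0.190%, 0.159% and 0.190%, which were 1, 11, 24 and 32 members. The 5 β5i-KO mice had 0.0871%, 0.156%, 0.129%, 0.0303% and 0.137%. The 4 β5t-KO mice had 0.186%, 0.322%, 0.118% and 0.361%, where the second value was 2 of 622 clonotypes. BIT 1, 2 and 5 had 0.122%, 0.0641% and 0.0830%, and BIT 4 had 0.601%, from 111 of 18472 clonotypes, with an exact Clopper-Pearson 95% interval of 0.495% to 0.723%. Every group overlapped with every other group, and BIT 4 lay above all other libraries. The intervals given here cover counting error only.

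The mean share for TCRα was 0.145% ± 0.0709 in WT mice (SD, n = 4), 0.108% ± 0.0502 in β5i-KO mice (n = 5), 0.247% ± 0.114 in β5t-KO mice (n = 4) and 0.217% ± 0.257 in BIT mice (n = 4). Without BIT 4 the mean of the BIT mice was 0.0896% ± 0.0294 (n = 3). None of the 6 pairs of genotypes passed an exact permutation test, two-sided, after adjustment over the 6 pairs. The pair with the smallest p was β5t-KO against β5i-KO, with a difference of 0.139 percentage points (exact permutation p = 0.0397, adjusted p = 0.238). The difference of BIT from WT was 0.0726 percentage points (exact permutation, adjusted p = 0.886) and turned to -0.0553 without BIT 4. The smallest p that 4 mice against 4 allow is 0.0286. A pair of 4 against 4 at that p could not pass by itself after adjustment over the 6 pairs, in either chain. Over all 20 amino acids treated in the same way, the groups did not overlap for 0% to 25% of them, depending on the pair, and cysteine was not one of these.

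For TCRβ the shares in WT mice were 0.109%, 0.0947%, 0.0531% and 0.0797%, and those in β5i-KO mice were 0.0621%, 0.0748%, 0.0455%, 0.0804% and 0.0538%. β5t-KO 1 and β5t-KO 3 had 0.231% and 0.137%. β5t-KO 2 and β5t-KO 4 held no member among 384 and 1900 clonotypes. A limit of 3 clonotypes puts these shares at up to 0.781% and 0.158%, and the exact 95% upper limits were 0.956% and 0.194%. β5t-KO 1 and β5t-KO 3 lay above every WT and β5i-KO mouse, whereas β5t-KO 2 and β5t-KO 4, at 0%, lay below them. The exact 95% intervals of the first pair were 0.130% to 0.382% and 0.0626% to 0.259%, the second reaching below most WT shares. The upper limits of the mice at 0% lay above every WT and β5i-KO share. The highest WT share, that of WT 1, rested on 1 of 919 clonotypes. BIT 1, 2 and 5 had 0.0840%, 0.0958% and 0.0598%, close to WT mice, and BIT 4 had 0.496%, from 98 of 19766 clonotypes (95% interval 0.403% to 0.604%).

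The TCRβ means were 0.0841% ± 0.0238 in WT (SD, n = 4), 0.0633% ± 0.0144 in β5i-KO (n = 5), 0.0921% ± 0.113 in β5t-KO (n = 4) and 0.184% ± 0.209 in BIT mice (n = 4), and 0.0799% ± 0.0184 in BIT mice without BIT 4 (n = 3). No pair passed the exact permutation test after adjustment, the smallest adjusted p being 0.238 for BIT against β5i-KO. That difference of 0.121 percentage points was 0.0166 without BIT 4, and the difference of BIT from WT moved from 0.0998 to -0.00420. Between 0% and 10% of the 20 amino acids did not overlap, depending on the pair, and cysteine overlapped in each of the 6. edgeR's quasi-likelihood test, run across the 20 amino acids, gave adjusted p from 0.101 to 0.983 for cysteine over both chains. A p that misses the threshold does not show that the genotypes had the same share.

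**Figure D1:**
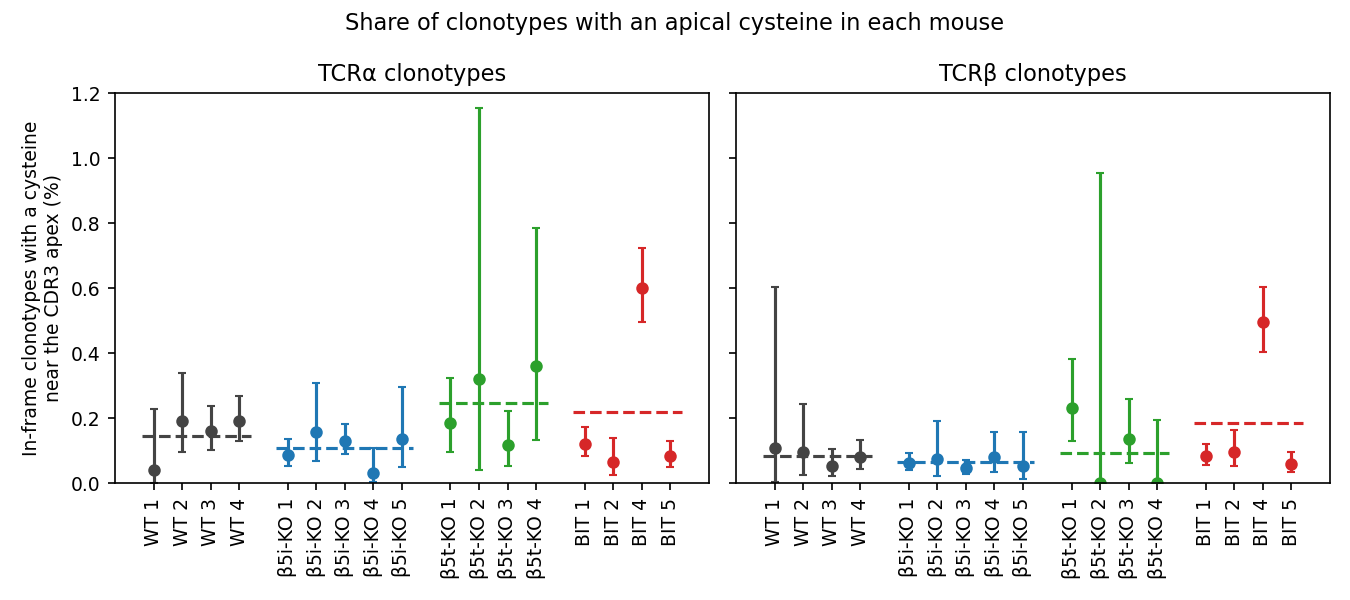
Share of in-frame clonotypes with a cysteine near the CDR3 apex (vertical axis, percent) in each of 17 mice by genotype, TCRα and TCRβ in separate panels. Each point is a mouse with its exact 95% interval for counting error, and dashed lines are group means. BIT 4, at 0.601% for TCRα and 0.496% for TCRβ, lies above the other mice, whose highest shares are 0.361% and 0.231%.

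BIT 4 exceeded the median of the other 16 libraries 4.53-fold for TCRα and 6.42-fold for TCRβ, and exceeded the highest of them 1.66-fold and 2.14-fold. Its depth did not stand out, with 18472 and 19766 clonotypes. After thinning every library to the fewest molecules, the TCRα share was 0.543% in BIT 4 against a median of 0.0738% in the others, and the TCRβ share was 0.461% against 0.0699%. When clones that differ by 1 base from a larger clone were left out, BIT 4 had 0.63% for TCRα and the others 0% to 0.211%. BIT 4 ranked first under each way of counting tried, with 1 exception: with the TCRα window narrowed to 1 position it had 0.222%, second to 0.241%.

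The excess in BIT 4 was made of many different clones, none of them large. Its 113 TCRα member clones had a median of 6 molecules and at most 34, and 12.4% of them rested on 1 molecule. The 226 member clones of the other 16 libraries had a median of 2 molecules, and 46.0% of them rested on 1 molecule. For TCRβ the medians were 2 molecules over 98 clones in BIT 4, with at most 8, and 2.5 over 168 clones in the others.

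The cysteines of BIT 4 lay mainly on the V side of the TCRα loop and on the J side of the TCRβ loop. Before the middle, inside the window, 0.268% of TCRα residues of BIT 4 were cysteine against 0.0396% in the other libraries pooled, whereas after the middle the shares were 0.0177% and 0.0148%. At the edge of the window, 2 positions before the middle, 0.447% of residues were cysteine in BIT 4 and 0.0584% in the others. Just outside it, at 2.5 positions, the shares were 0.331% and 0.106%, so the excess ran past the border that defines a member. For TCRβ, 65.3% of BIT 4 members had the cysteine after the middle, against 46.4% of the members of the other libraries. In 45 of 98 TCRβ members of BIT 4 a glycine came right before the cysteine (45.9%), against 51 of 168 elsewhere (30.4%). TRBJ2-3 was used by 24 of 98 BIT 4 members (24.5%) and by 18 of 168 others (10.7%), whereas TRBJ2-7 was used by 10 (10.2%) and 41 (24.4%). These splits between BIT 4 and the rest compare 1 library with the others and were not tested.

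Other residues moved in BIT 4 as well. Near the TCRα apex it had the highest share among 17 mice of clonotypes with phenylalanine (5.77%, against 3.63% to 4.64% in the others), leucine (9.23%, against 6.74% to 8.08%) and valine (5.44%, against 4.60% to 5.36%), and also with glycine. It had the lowest share with aspartate (15.3%, against 16.3% to 18.6%) and asparagine (57.1%, against 58.3% to 61.2%). The direction was not shared by like residues, as alanine ranked 16 and isoleucine 12 of 17, while serine ranked 2. For TCRβ it was highest for cysteine only, and lowest for asparagine and glutamine. TRAV11 with TRAJ18 is typical of natural killer T cells, and TRAV1 with TRAJ33 of mucosal-associated invariant T cells. BIT 4 held 4 of each among 18472 clonotypes (0.0217%), ranking 5 and 10 of 17. Counts this small do not place it among the mice, and the share of innate-like cells was not tested. In the non-productive clones of BIT 4 the share of cysteine near the apex was 1.02% for TCRα and 0.376% for TCRβ, within the range of the other mice.

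The second comparison asked how often cysteine was found near the apex of in-frame junctions, which can encode a receptor chain, and of junctions that cannot. Whether an in-frame chain reached the cell surface was not measured. Non-productive clones are carried along by cells with another functional rearrangement, so their residues were not selected as protein. Most are out of frame and partly read in another frame, as described below. Their share of cysteine is therefore not simply the frequency before selection. In TCRα, cysteine was 0.0374% ± 0.0303 of the in-frame residues near the apex (mean over mice ± SD, n = 17) and 0.994% ± 0.168 of the non-productive ones, a 26.6-fold difference (31.3-fold without BIT 4). The in-frame share ran from 0.00656% to 0.129% over the mice and the non-productive share from 0.668% to 1.28%, with no overlap. Cysteine was lower in-frame in 17 of 17 mice (exact sign-flip permutation, two-sided, adjusted p = 1.80e-05, the unadjusted p of 1.53e-05 being the smallest that 17 mice allow). Of the 20 amino acids 100% differed between in-frame and non-productive TCRα clones, and 65% were lower in-frame, so the call by itself does not set cysteine apart. By the size of the ratio it came first, and isoleucine came next with 9.54-fold.

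In TCRβ, cysteine was 0.0225% ± 0.0248 of the in-frame and 0.322% ± 0.245 of the non-productive residues near the apex (SD, n = 17), a 14.3-fold difference (18.5-fold without BIT 4). It was lower in-frame in 14 of 17 mice (exact sign-flip permutation, adjusted p = 0.00122). The other 3 mice, WT 1, β5t-KO 2 and β5t-KO 4, had no cysteine in their few non-productive residues. Here 30% of the 20 amino acids were lower in-frame by the same test. The next largest ratio was that of lysine, with 1.37-fold. Pooled over the mice, the counts behind these shares were 340 of 949516 in-frame and 775 of 78068 non-productive residues for TCRα, and 266 of 1158340 and 89 of 26974 for TCRβ. No difference between genotypes in this contrast passed the exact permutation test in either chain.

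**Figure D2:**
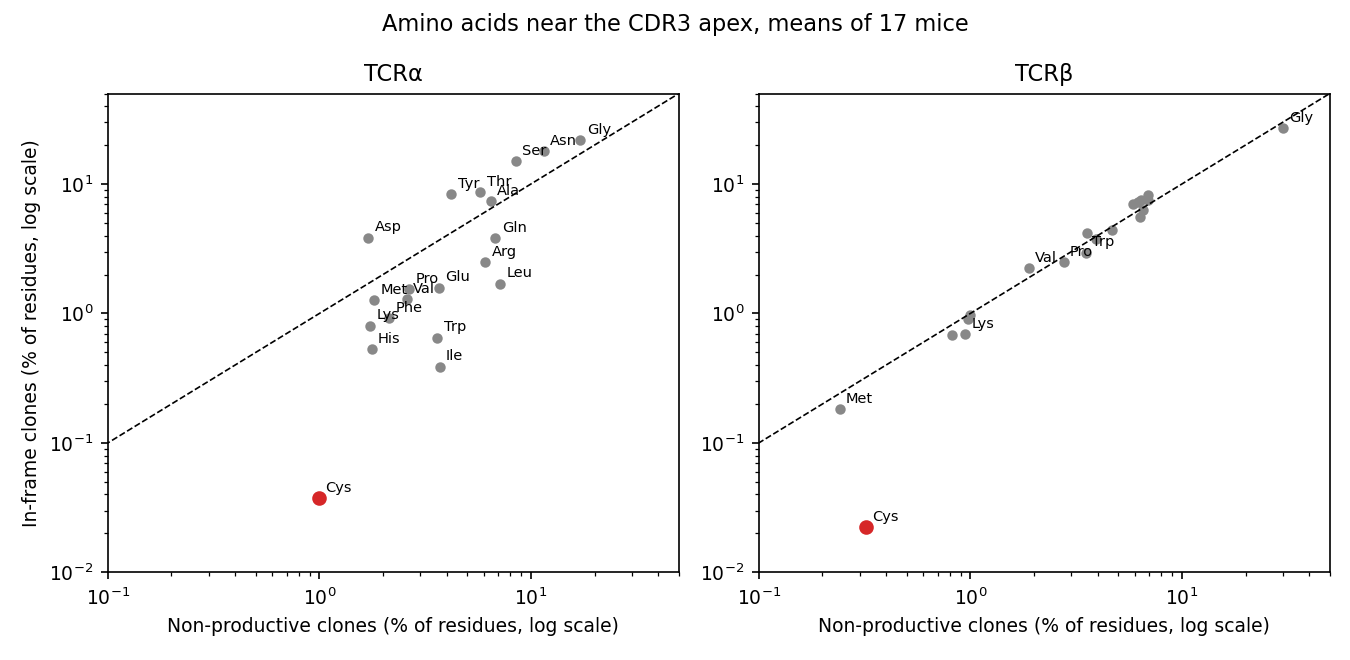
Share of each of the 20 amino acids among residues near the CDR3 apex in non-productive clones (horizontal axis, percent, log scale) and in in-frame clones (vertical axis, percent, log scale), as means over 17 mice, for TCRα and TCRβ. Points under the diagonal are residues that were rarer in-frame. Cysteine lies farthest under it in both panels, at 0.0374% against 0.994% and at 0.0225% against 0.322%.

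How a non-productive junction is read bears on this comparison. Out-of-frame clones are translated from both ends, so that residues near the middle can be J gene bases read in another frame. Of the 775 non-productive TCRα cysteines only 26 had a junction codon, meaning one not wholly within the aligned V or the aligned J bases. When residues were restricted to those with a junction codon in both kinds of clone, the TCRα shares were 0.154% in-frame and 0.315% non-productive, lower in 11 of 17 mice, and the difference was no longer called (exact sign-flip permutation, adjusted p = 0.180). With BIT 4 left out as well, they were 0.112% and 0.335% in 16 mice (adjusted p = 0.0347, exact sign-flip permutation). In TCRβ the restricted shares were 0.0289% and 0.332%, and the difference passed with BIT 4 and without it (exact sign-flip permutation, adjusted p = 0.00244 and 0.00488). The restriction was added after the data had been seen. Of the non-productive clones, 28.2% for TCRα and 18.6% for TCRβ were 1 base change, gain or loss away from an in-frame clone of the same library. Without these clones the non-productive shares of cysteine were 1.03% and 0.397%.

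The cysteine codon itself lay mostly at the join. Of the 339 TCRα member clones, 220 (64.9%) had it in the junction, as in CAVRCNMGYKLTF, and these clones had a median of 7 molecules. A junction codon is one not wholly within the aligned V or the aligned J bases, so it can hold some bases of either gene. Another 105 clones (31.0%) had it where the J gene was aligned with a mismatch in the codon, and these had a median of 1 molecule. Of the 105, 82 rested on a single molecule and 94 differed by 1 base from a larger clone of the same library, and in 102 of them a single base differed from the J gene. They replaced a glycine in 44, a serine in 33 and a tyrosine in 23 clones, residues whose codons are 1 base away from TGT or TGC, and were spread over 31 J genes. Whether these are read errors was not tested. In BIT 4, 86.7% of the TCRα codons lay in the junction, against 54.0% in the other libraries. The share varied between mice, with 36.4%, 40.0% and 51.5% in WT 2, 3 and 4, and 100% in WT 1, which had 1 clone.

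In TCRβ, 231 of 266 member clones (86.8%) had the codon in the junction. Only 14 had it in the J gene with a mismatch, and 14 had it in the V gene without one, 12 of them in TRBV1 and 2 in TRBV22. TRBV1 lies on chr6:40868163-40868819 of GRCm39, plus strand, and encodes a second cysteine as the third residue of the CDR3, which 99.5% of 10744 TRBV1 clonotypes kept. This cysteine enters the window only where the loop is very short, and the 12 TRBV1 clonotypes of at most 9 residues were all members, none of them from BIT 4. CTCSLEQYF of β5t-KO 1, with 274 CPM and 19 molecules, was one of these. Such a cysteine is a germline residue and not a product of joining. Just outside the window, at 3 positions before the middle, 0.281% of TCRβ residues were cysteine, against 0.0309% at 2 positions before it, just inside.

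**Figure D3:**
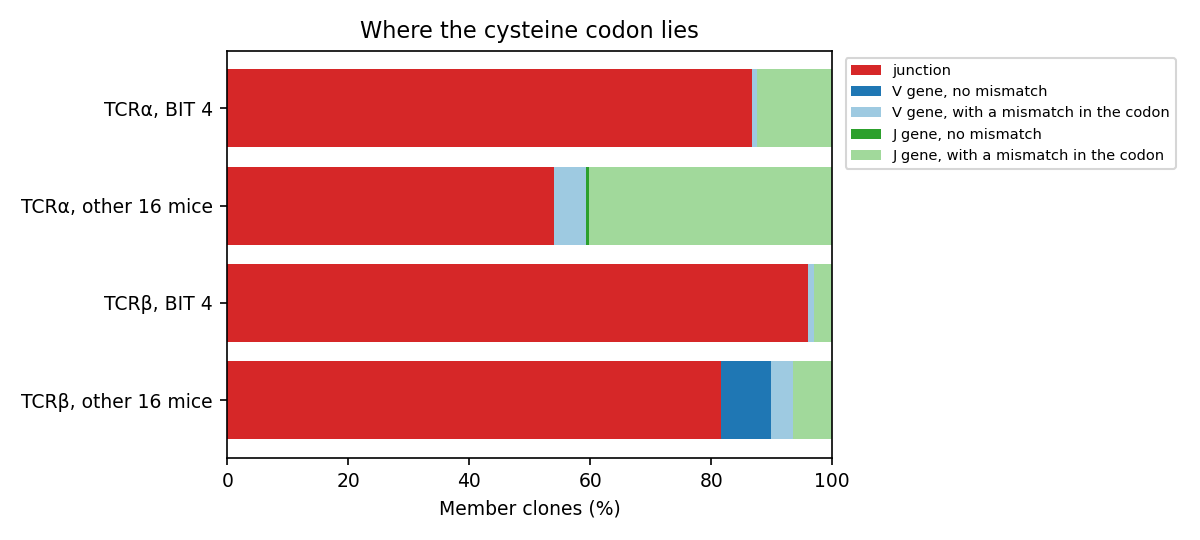
Share of member clones (horizontal axis, percent) by the place of their cysteine codon, with a bar each for TCRα and TCRβ in BIT 4 and in the other 16 mice. Codons in the junction make up 86.7% of the TCRα clones of BIT 4 and 54.0% of those of the other mice, where codons in the J gene with a mismatch make up most of the rest.

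**Figure D4:**
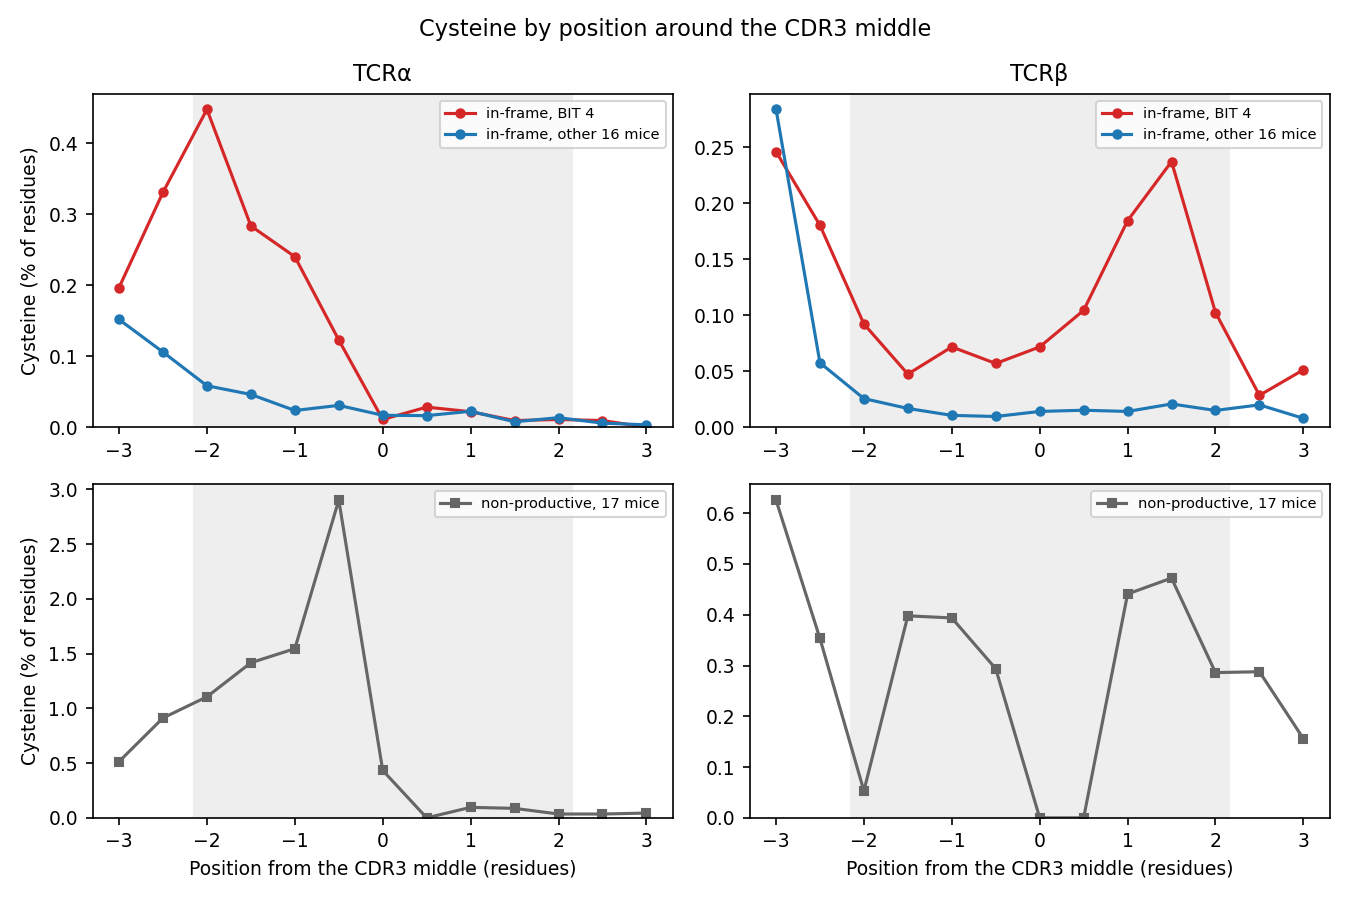
Share of CDR3 residues that are cysteine (vertical axis, percent) by their distance from the CDR3 middle (horizontal axis, residues) for in-frame clones of BIT 4 and of the other 16 mice pooled (upper panels) and for non-productive clones of all 17 mice (lower panels, other scale). Grey marks the window that defines a member. BIT 4 rises before the middle in TCRα, to 0.447% at 2 residues, and after the middle in TCRβ.

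Members were next compared with the other in-frame clonotypes of the same mouse. They were almost never shared. The same V gene, J gene and CDR3 were found in another mouse for 2.75% of TCRα members and 45.9% of other clonotypes, lower in 17 of 17 mice (exact sign-flip permutation, adjusted p = 2.29e-05). For TCRβ the shares were 0% and 25.4%, lower in 15 of 15 mice with members. Without BIT 4 the shares were 2.92% and 46.1% for TCRα, and 0% and 25.5% for TCRβ. Counted over mice by CDR3 sequence alone, 10 of 322 TCRα members (3.11%) were found in at least 2 mice, at most in 3, against 29.8% of other sequences. For TCRβ it was 1 of 265 (0.377%) against 17%.

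The length of members is given as a description, since the definition uses it: the window has a fixed width and covers a larger part of a short loop. The mean TCRα CDR3 length was 13 residues in members and 13.6 in other clonotypes, and the TCRβ length was 13.4 and 13.9. Among clonotypes of at most 11 residues, 0.409% of TCRα and 0.293% of TCRβ were members (0.394% and 0.277% without BIT 4), against 0.169% and 0.106% over all lengths. Lengths of members ran from 5 to 17 residues for TCRα and from 7 to 26 for TCRβ.

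Member clonotypes were also smaller. TCRα members had 11.8 ± 11 molecules per clonotype and the others 28.4 ± 31.4 (mean over mice ± SD, n = 17), lower in 15 of 17 mice (exact sign-flip permutation, adjusted p = 0.00143). The difference of -16.6 molecules was -10.1 without β5t-KO 2 and -17.5 without BIT 4. This difference was not called when clonotypes with 1 molecule were left out (-1.01 molecules, adjusted p = 0.700, exact sign-flip permutation) or when 1-base neighbours of larger clones were left out (-1.25, adjusted p = 0.618). TCRβ members had 3.41 molecules and the others 4.86, lower in 14 of 15 mice (exact sign-flip permutation, adjusted p = 0.00101), and this difference was called in both of these restricted sets. The differences of members from other clonotypes in size and sharing were also compared between the genotypes, and none passed the exact permutation test, the smallest adjusted p being 0.0857. Between genotypes, the abundance of single members could not be compared, since 0 of them were among the 6015 TCRα and 3497 TCRβ sequences that reached 10 CPM in at least 3 libraries of a group. Under weaker filters 8 TCRα members and 1 TCRβ member could be tested. edgeR called 0 of them in the 6 comparisons, with a smallest adjusted p of 0.111. With 10 CPM in at least 2 libraries of a group, a member found in 2 mice can pass only through the group where it is high. Nothing is therefore drawn from the 0 to 3 members per comparison at an unadjusted edgeR p under 0.05. The share of all sequences at that p is not given. Few sequences of any kind were called under these weaker filters. For TCRα the share of all sequences called was 0.00637% for BIT against WT and 0.0191% for β5t-KO against both BIT and β5i-KO with 10 CPM in at least 2 libraries, and 0.0038% and 0.0038% for BIT against WT and against β5t-KO and 0.0076% for β5t-KO against β5i-KO with 10 reads in at least 2 mice. The other shares, and all those of TCRβ, were 0%.

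V and J gene usage of the members was compared with that of the other in-frame clonotypes of the same mice by edgeR's quasi-likelihood test with Benjamini-Hochberg adjustment. Usage is not independent of the definition: the place of the window depends on how many residues the V and J genes bring. The calls are therefore a description of the members. Among 43 TRAJ genes, 2 were used more by members (4.65% of those tested) and 1 was used less (2.33%). Among 93 TRAV, 23 TRBV and 12 TRBJ genes none was called, with 8, 5 and 1 at an unadjusted p under 0.05. DESeq2 called 43, 11 and 3 of them, with a scaling that moved the median log2 ratio of all genes by -1.11, -0.95 and -0.61. TRAJ43 was used by 17 member clonotypes (5.11%, against 1.89% of the others), with a log2 ratio of 1.48 (SE 0.34, edgeR adjusted p = 0.0135), higher in 10 of 17 mice. TRAJ31 was used by 31 members (9.31% against 4.01%), with a log2 ratio of 1.27 (SE 0.35, edgeR adjusted p = 0.0205), higher in 8 of 17 mice, but it turned to -0.38 with TMM scaling and -0.59 with DESeq2, which moved the median of all TRAJ genes by -1.47 and -1.24. TRAJ43 stayed above 0 under both, at 0.05 and 0.04, and was called by neither. TRAJ52 was used by 0 of 333 members against 1.37% of the others, which is at least 1.52-fold lower with a floor of 3 clonotypes over all members (edgeR adjusted p = 0.0418). None of the 3 was called without BIT 4 (0 TRAJ genes, smallest adjusted p = 0.133), and only TRAJ43 was called without BIT 5. The call of TRAJ52 was lost in 9 of 17 such omissions, which were those of WT 3 and 4, β5i-KO 1 and 3, β5t-KO 1 and 3, and BIT 1, 4 and 5 (edgeR adjusted p from 0.0512 to 0.133). The log2 ratios were then 1.37 for TRAJ43 and 1.10 for TRAJ31 without BIT 4.

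TRAJ31 and TRAJ43 both bring a run of asparagines near the join. Of 31 TRAJ31 members, 15 ended in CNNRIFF and 12 in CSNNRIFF, the ending of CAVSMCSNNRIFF above, so the cysteine sat where the J gene begins. Of 18 TRAJ43 member clones, 11 ended in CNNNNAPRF, as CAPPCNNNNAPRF did in 2 BIT mice. In GRCm39 the 3 genes lie on the plus strand at chr14:54402773-54402838 (Traj52), chr14:54412199-54412255 (Traj43) and chr14:54425352-54425408 (Traj31). Many TRAV genes have near-identical copies, and 85.3% of the clones assigned to TRAV12-1 listed several V genes, so V genes of TCRα members are uncertain.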

How the data were processed

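TCRα and TCRβ libraries were made from RNA of 1000000 sorted cells of each mouse with a kit that tags each molecule. The deposited clone tables hold, per the labels and the study's methods, read counts and unique-molecule counts for each clone assembled by MiXCR, whose version is not given in the sources used here. The submitters' processing notes name mm10, and gene positions are from GRCm39. Here, 17 of 20 mice were used. In-frame clones were grouped into clonotypes by V gene, J gene and CDR3. The middle residue was (length + 1) / 2. A larger clone, where 1-base neighbours were left out, had at least 2 times the molecules.

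Groups were compared by exact permutation tests of the mean share, and in-frame with non-productive clones and members with other clonotypes by exact sign-flip permutation tests within mice, two-sided, with Benjamini-Hochberg adjustment over 6 pairs, 20 amino acids or 3 measures (molecules, length and sharing; length is given without its p, because the definition uses it). V and J usage and abundance were tested by edgeR 4.0.16 in R 4.3.3, with DESeq2 1.42.0 as an alternative, on V or J genes with at least 5 clonotypes in at least 4 libraries. TCRα libraries held 14772 to 602397 molecules and TCRβ libraries 8119 to 146469, and 1 clonotype in the shallowest was a large part of its share. The permutation and sign-flip tests were run on simulated data first. The edgeR test of V and J usage was run on simulated tables after the fits. Members and lists were chosen with earlier results of these data known. The sequences named were those in the most mice and those with the highest share of reads in each genotype. Other ways of counting, windows of 1 and 3 positions and leaving out each mouse were tried.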

Additional observations from a re-analysis of the deposited data

Results flagged for a closer look

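Of 41 groups of 4 or 5 mice that were examined for a mouse far from the others, 5 held one. Chance alone gives one in about 5% of such groups. In 4 of them it was BIT 4. Its share of clonotypes with a cysteine near the apex was 0.601% for TCRα and 0.496% for TCRβ, and its share of cysteine among in-frame residues near the apex was 0.129% for TCRα and 0.108% for TCRβ. The gap to the nearest BIT mouse took up a part of 0.892, 0.917, 0.895 and 0.914 of the range of the 4 BIT mice. These measures overlap in content and are not independent of each other. The fifth was WT 3, in which 4.17% of TCRα members, 1 of 24, were found in another mouse, with 0% in the other WT mice.

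The libraries left out held few clonotypes. BIT 3 had 1 member among 455 TCRα and 1 among 401 TCRβ clonotypes, β5t-KO 5 had 0 of 24 and 1 of 11, and WT 5 had 0 of 1 for TCRβ.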

How the results depend on the processing

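The signs of several differences in share between genotypes changed with the way of counting. For TCRα, β5i-KO minus WT (in percentage points) turned to 0.0112 weighted by molecules, 0.0252 with at least 2 molecules, 0.0142 thinned and 0.0154 without 1-base neighbours. β5t-KO minus WT turned to -0.000752 weighted by reads and, with a window of 1 position, to -0.00449, where BIT minus WT was -0.0216. β5t-KO minus β5i-KO turned to -0.00313 weighted by molecules. BIT minus β5t-KO turned to 0.000160 over distinct sequences, 0.0980 weighted by molecules, 0.0923 by reads, 0.101 with at least 2 molecules, 0.0558 thinned, 0.0354 with a window of 3 positions, 0.114 without 1-base neighbours, 0.0767 with junction codons only, and 0.30 on edgeR's log2 scale. For TCRβ, β5i-KO minus WT turned to 0.0118 weighted by molecules, 0.0229 by reads, 0.0180 with at least 2 molecules and 0.0168 without 1-base neighbours, and β5t-KO minus WT to -0.0131 with a window of 1 position. BIT minus β5i-KO became 0.216 with a window of 3 positions (exact permutation, adjusted p = 0.0476, against adjusted p up to 0.857 under its other alternatives). It was positive under every alternative run, and with that window and BIT 4 left out it was 0.0991 (adjusted p = 0.214, exact permutation). For TCRα, BIT minus WT was then -0.0469 and BIT minus β5i-KO -0.000198. The alternatives without 1-base neighbours, with junction codons only, and with both the window of 3 positions and BIT 4 left out were chosen after seeing the data.

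Leaving out 1 mouse at a time gave, for TCRα, -0.0553 to 0.124 for BIT minus WT, -0.0182 to 0.161 for BIT minus β5i-KO, -0.157 to 0.0219 for BIT minus β5t-KO, -0.0718 to -0.0177 for β5i-KO minus WT, 0.0635 to 0.145 for β5t-KO minus WT and 0.101 to 0.182 for β5t-KO minus β5i-KO. For TCRβ in the same order it gave -0.00420 to 0.141, 0.0166 to 0.162, -0.0122 to 0.138, -0.0311 to -0.0125, -0.0385 to 0.0387 and -0.0177 to 0.0594.

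Nothing in the labels says that a number marks a shared batch. In V gene usage, the correlation of same-numbered pairs had a median of 0.00897 for TCRα and 0.286 for TCRβ, and reached 0.272 and 0.907. Of these pairs, 7 of 22 for TCRα and 16 of 22 for TCRβ correlated above 0.1. All 4 pairs did so for β5t-KO and β5i-KO in TCRα and for β5t-KO and WT in TCRβ, but neither held in the other chain of the same mice. With the number as a replicate block these differences were 0.146 and 0.00799, and BIT minus WT was 0.122 for TCRα and 0.131 for TCRβ. At most 4 same-numbered pairs enter such a test, too few for any p under the threshold. Whether the results depend on a shared batch was therefore not tested.

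With clones that hold a stop codon as the only non-productive ones, in-frame minus non-productive cysteine was -0.0148 for TCRα and -0.0772 for TCRβ (exact sign-flip permutation, adjusted p = 0.720 and 1), from 2 of 2071 and 1 of 1600 residues. With junction residues only it was -0.161 for TCRα. Without single mice it was -0.977 to -0.937 for TCRα and -0.320 to -0.258 for TCRβ. Counted as reads, members minus others was -675 for TCRα and -87.6 for TCRβ (adjusted p = 0.309 and 0.0686, exact sign-flip permutation). With BIT 3 included, TCRβ molecules differed by -0.810 which was not called, and the lengths by -0.433 for TCRα and -0.422 for TCRβ. Without 1-base neighbours and with at least 2 molecules the TCRα difference in molecules was -1.25 and -1.01. Without single mice it was -18.2 to -10.1, and -1.58 to -0.995 for TCRβ, all called. TCRβ length differed by -0.640 to -0.402 without single mice.

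Calls of V and J genes depended on scaling. TMM moved the median log2 ratio by -1.75 for TRAV, -1.47 for TRAJ, -1.09 for TRBV and -0.73 for TRBJ genes, and the cause was not tested. TMM called 43 TRAV, 34 TRAJ, 8 TRBV and 4 TRBJ genes, DESeq2 43, 31, 11 and 3, and molecules in place of clonotypes 40, 31, 3 and 0. The log2 ratio of TRAJ31 was then -0.38, -0.59 and -0.0918. With V subgroups 1 TRAV and 1 TRBV subgroup were called, and 1 TRBV gene each without the filter and with at least 2 molecules. Without single mice 0 to 3 TRAJ genes were called. No member passed the abundance filter under any setting of the main filter, so TMM, DESeq2, molecules, the block and BIT 3 gave no value there. Depth limited β5t-KO 2, β5t-KO 4 and WT 1 most.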
